A study of Homo sapiens with 9 samples.

Results

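Translation factors are the proteins that load ribosomes onto mRNA, move them along it and release the finished chain. The mRNAs that encode them were followed here in RNA precipitated with guidance receptors from SH-SY5Y cells, a line derived from a human neuroblastoma. Genes were chosen by symbol alone, as initiation factors EIF1 to EIF6, elongation factors EEF1 and EEF2, the termination factors ETF1, GSPT1 and GSPT2, and the poly(A)-binding proteins PABPC1 and PABPC4, with pseudogene symbols left out. This gave 69 of the 42785 genes in the count files. The rule uses symbols and no measured value.

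Cells were grown under a single condition, with no cue or drug added during culture. RNA was isolated after precipitation with a mouse antibody to DCC, the receptor of Netrin-1 (DCC-IP), after precipitation with a rabbit antibody to Nrp1, a receptor of Sema3A (Nrp1-IP), or from whole lysate (Input), with 3 libraries in each group. The lysate was cleared of nuclei and contained cycloheximide, which holds ribosomes on mRNA. The cDNA was amplified by PCR before sequencing, and no pulldown with a control antibody is among the 9 libraries analysed. The methods speak in general of independent biological replicates, but the labels do not say whether these libraries came from separate cultures, so p-values measure only the spread between them, which may in part be technical. In bulk libraries of this kind, RNA from fewer cells and less RNA per cell cannot be told apart.

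Initiation begins when eIF2 brings the initiator tRNA to the small ribosomal subunit and eIF4E, the cap-binding protein, recruits the mRNA through the scaffold eIF4G. Each step has a brake. Kinases that phosphorylate eIF2 lock its exchange factor eIF2B, and 4E-BPs such as EIF4EBP2 occupy eIF4E when mTOR is inactive. Neurons use these switches to turn synthesis on close to a receptor. Many mRNAs of the translation machinery themselves start with a run of pyrimidines, the TOP motif, through which mTOR and LARP1 control their translation.

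Gene counts per library ran from 8838296 to 11055895. The floor of detection was set at 3 counts, which is 0.271 to 0.339 CPM, that is, counts relative to the scaled size of each library. The floors cover counting error only, since no molecular identifiers were described, whereas SD and SE hold the spread between libraries. The DCC-IP libraries were dominated by MAP1B, with 47.4% ± 6.20 of their gene counts (SD, n = 3), whereas the gene took 1.58% to 2.44% in each of the other 6 libraries. Of 10 markers of sympathetic neuroblastoma cells, 9 passed the floor in at least 1 library, while TH, which defines catecholamine synthesis, was at 0 in all 9. The summed level of these markers was 300.2 to 498 CPM in Input, 1305 to 4115 CPM for DCC-IP, and 1068 to 1399 CPM for Nrp1-IP, with most of the pulldown counts on ISL1. Of 8 markers of other cell types, 1 passed the floor anywhere (COL1A1), the others were at 0 in all 9 libraries, and the sums stayed between 0.0922 and 4.78 CPM.

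To show what the TOP motif looks like in these genes, 25 bases around the annotated RNA start are given for a selection of members, from the RefSeq promoter table of GRCh38.p14. The selection includes EEF2, EIF3M and EIF4B, which were not called in the main fit of any comparison. It leaves out EIF5A and EIF5AL1, which were called lower in both pulldowns against Input and had no motif. The first 5 bases lie before the start and capitals mark an unbroken run of C and T beginning with a C at the start itself. Members with such a start, first those that bring the initiator tRNA and then those of elongation and of the other initiation steps, were:
EIF2S3 (chrX:24054951-24054975, plus strand): ccttcCTCTTTTggcaacatggcgg
EIF2A (chr3:150546782-150546806, plus strand): ggtttCTCTTTCCgggacaacatgg
EEF1A1 (chr6:73521013-73521037, minus strand): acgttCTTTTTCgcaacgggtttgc
EEF2 (chr19:3985444-3985468, minus strand): gcgttCTCTTCCgccgtcgtcgccg
EIF3M (chr11:32583826-32583850, plus strand): gttccCTTTTCCggtcggcgtggtc
EIF4B (chr12:53006451-53006475, plus strand): cgggtCTTTTgcgttctctttccct
Members without it, shown because they carry the differences between the receptors or the gain in DCC-IP, were:
EIF2S1 (chr14:67360323-67360347, plus strand): tccgcatgcgcggtggagtgagcga
EIF4EBP2 (chr10:70404140-70404164, plus strand): cgcccgcttccggtcgtcgtcgtcg
EIF4E (chr4:98929114-98929138, minus strand): cggttgtgcgatcagatcgatctaa
EIF2B2 (chr14:75002916-75002940, plus strand): gccccggaagtgcaaactgtgtggt

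The motif searched was a C at the first transcribed base followed by at least 4 bases that were each C or T, read on the transcribed strand only. It was present in 4.07% of the 35116 start windows in the table, and 5.14% of all symbols had at least 1 window with it. Of the members, 55 had a window and 12 of these (21.8%) held the motif. A match describes letters at an annotated start, which need not be the start used in SH-SY5Y cells.

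Translation factor mRNAs were found in every library, but very unevenly. Over the floor of 3 counts there were 47, 55 and 56 members in the Input libraries, 40, 45 and 55 in those of DCC-IP, and 46, 45 and 55 in those of Nrp1-IP. In all 9 libraries 36 members passed it. No count was found on EEF1A2, EEF1E1, EEF1G, EIF4E1B and EIF4EBP3 in any library, which at this depth allows up to the floor of each library, and EIF1AY never rose over the floor. The members together took 2.15% ± 0.385 (SD, n = 3) of the Input gene counts, 0.633% ± 0.0372 of those in DCC-IP, and 1.80% ± 0.109 of those in Nrp1-IP. With MAP1B left out of the total, the shares were 2.20%, 1.21% and 1.84%. For the members summed, DCC-IP remained the lowest group on both scales. EIF2S3, EIF2S1 and EIF4EBP2 alone carried 84.8% to 89.4% of the member counts in Input, 55.7% to 62.8% in DCC-IP, and 87.2% to 88.6% in Nrp1-IP.

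**Figure D1:**
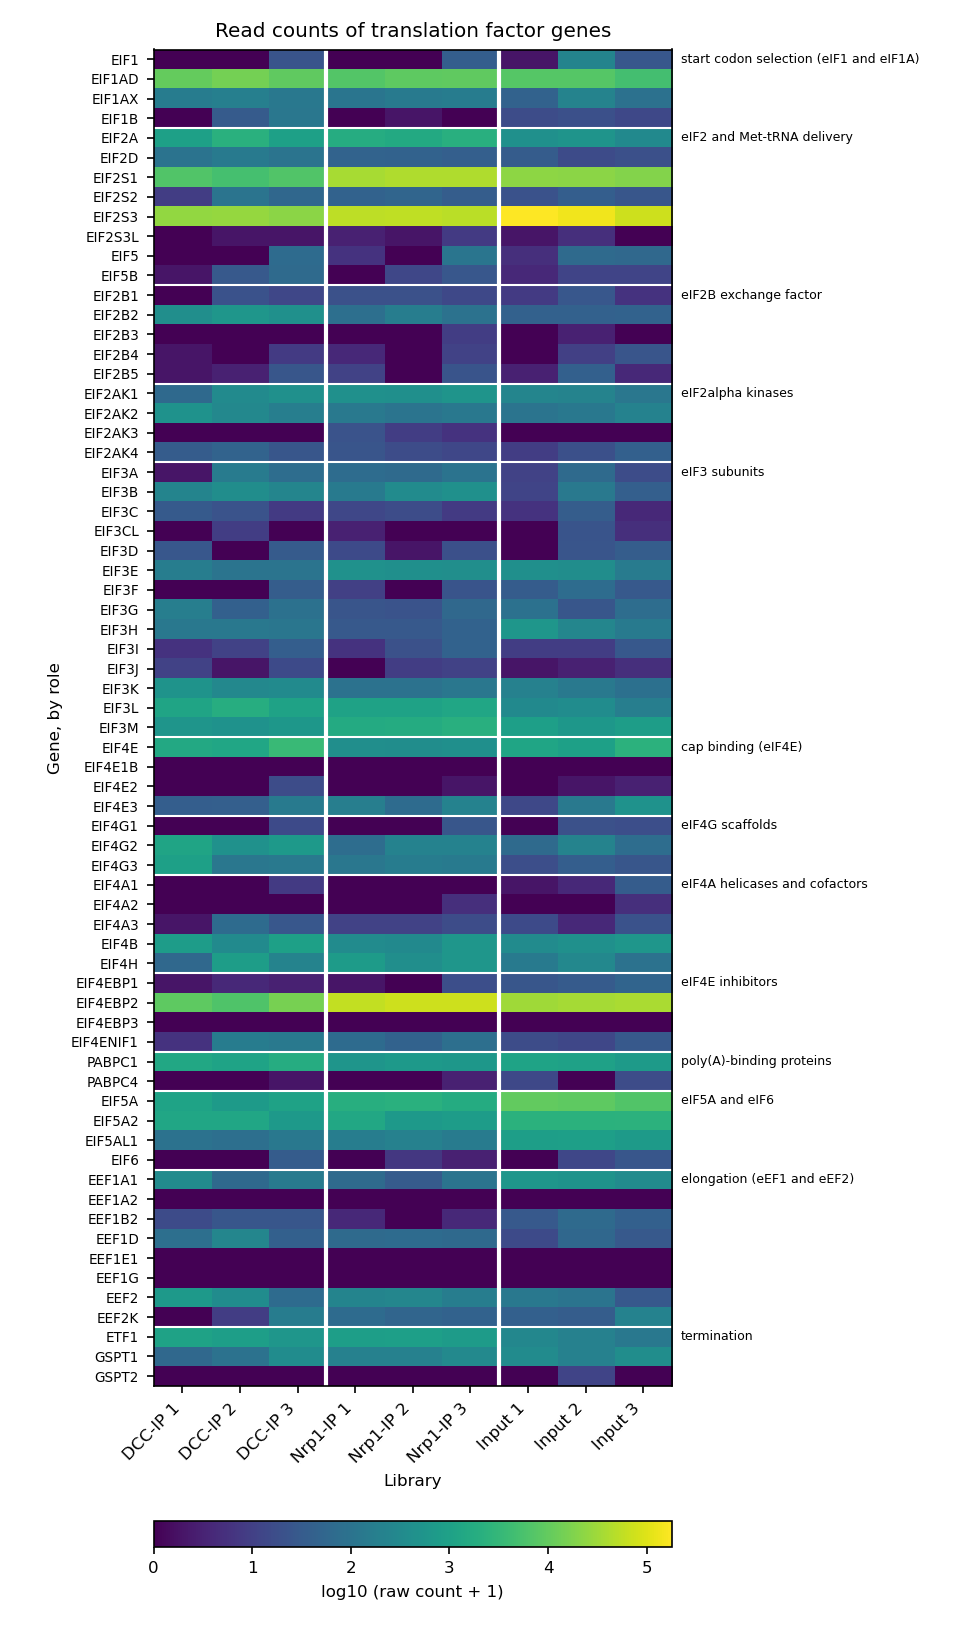
Raw read counts of 68 of the 69 translation factor genes (rows, grouped by role; EIF1AY is not drawn) in the 9 libraries (columns), as log10 of the count plus 1. EIF2S3, EIF2S1 and EIF4EBP2 are the brightest rows in the Nrp1-IP and Input libraries, EIF1AD exceeds EIF2S1 in DCC-IP, and EIF2S1 and EIF4EBP2 are brighter in Nrp1-IP and Input than in DCC-IP.

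To ask which of these mRNAs differ between the receptors, Nrp1-IP was compared with DCC-IP by edgeR's quasi-likelihood test over all 6439 genes that passed its count filter, with a Benjamini-Hochberg adjusted p under 0.05 as the threshold for a call. Of the 69 members, 45 passed the filter. EIF2S1 and EIF4EBP2 were called higher in Nrp1-IP, EIF4E was called lower, and 42 were not called. This is 6.67% of the members tested, and the share of all tested genes called in this comparison was 3.65% (2.56% higher and 1.09% lower). DESeq2 called 3 members higher and 5 lower (408 and 297 over all tested genes). Scaling by library size alone gave 4 higher and 1 lower (209 and 45 over all tested genes). The median log2 fold change was -0.46 for the members and -0.27 for all tested genes, so changes are also given relative to the median gene. A log2 fold change above 0 was found for 16 of the 45 members and for 42.6% of all tested genes. The 3 Nrp1-IP libraries lay above all 3 DCC-IP libraries for 8 members and below them for 8, where 15.6% and 10.9% of all tested genes did so.

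EIF2S1 encodes the alpha subunit of eIF2, the subunit that stress kinases phosphorylate. Its raw counts were 23614, 22158 and 19009 in Input, 6658, 5050 and 6690 in DCC-IP, and 36597, 43709 and 43662 in Nrp1-IP. The Nrp1-IP libraries were highest, Input was close behind, and DCC-IP stood apart below both. On the TMM-scaled level this was 2698 ± 329 CPM in Input, 541 ± 187 CPM for DCC-IP, and 3581 ± 396 CPM for Nrp1-IP (SD, n = 3). The Nrp1-IP over DCC-IP log2 fold change was 2.60 ± 0.31 (SE, adjusted p = 0.00255), or 2.87 above the median gene, and the call held without each library in turn (highest adjusted p = 0.0300). In RefSeq this gene overlaps GPHN, and the strand setting of the counting is not given in the sources used here.

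EIF4EBP2 encodes the 4E-BP that predominates in brain and holds eIF4E away from eIF4G. Counts were 31466, 35652 and 39035 in Input, 9022, 6348 and 15234 in DCC-IP, and 58199, 70657 and 71141 in Nrp1-IP. Every Nrp1-IP library held more than every Input library, and DCC-IP was lowest throughout. The level was 4416 ± 448 CPM in Input, 863 ± 307 CPM for DCC-IP, and 5773 ± 645 CPM for Nrp1-IP. The receptors differed by 2.63 ± 0.32 on the log2 scale (adjusted p = 0.0028), or 2.89 above the median gene. Leaving out each library in turn kept the call in 6 of 6 fits, with log2 fold changes from 2.46 to 3.19. Its counts and those of EIF2S1 kept nearly the same proportion in all groups, at 1.67 ± 0.364 in Input, 1.63 ± 0.563 in DCC-IP, and 1.61 ± 0.0199 in Nrp1-IP (EIF4EBP2 over EIF2S1 counts in a library).

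EIF4E, which binds the cap and is the target of EIF4EBP2, went the other way. Counts were 1259, 987 and 2413 in Input, 1461, 1312 and 3613 in DCC-IP, and 399, 381 and 407 in Nrp1-IP. Nrp1-IP was below all other libraries, while DCC-IP and Input overlapped. Levels were 195 ± 97.1 CPM in Input, 174 ± 73.1 CPM for DCC-IP, and 34.4 ± 3.43 CPM for Nrp1-IP. The Nrp1-IP over DCC-IP log2 fold change was -2.47 ± 0.45 (adjusted p = 0.0178), or -2.20 relative to the median gene. This call rested on each Nrp1-IP library, since the adjusted p became 0.216, 0.139 and 0.117 without Nrp1-IP replicate 1, 2 and 3, at log2 fold changes of -2.40, -2.46 and -2.36.

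**Figure D2:**
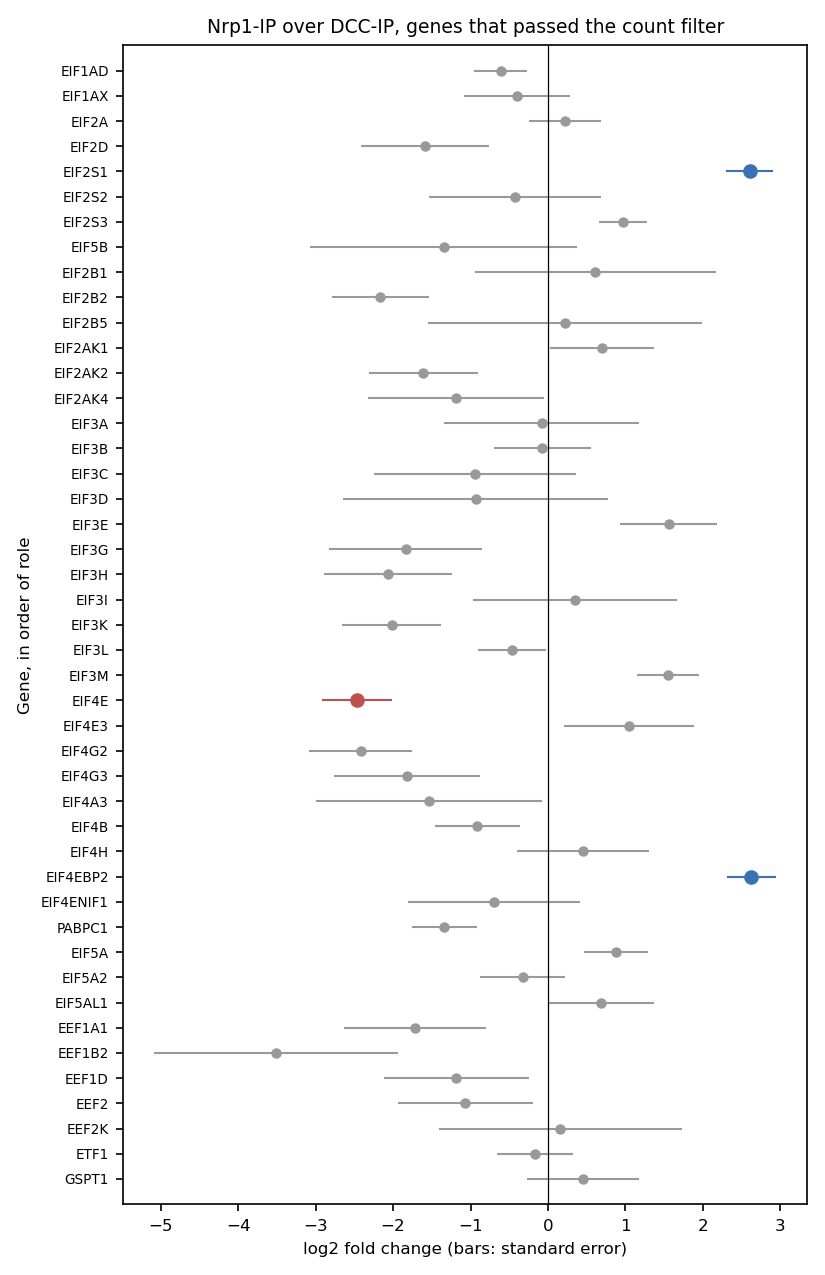
Log2 ratio of Nrp1-IP to DCC-IP (horizontal axis, bars are standard errors) for the 45 translation factor genes that passed the count filter, in order of role. Blue marks a gene called higher in Nrp1-IP, red a gene called lower, and grey a gene not called at an adjusted p under 0.05. EIF2S1 at 2.60, EIF4EBP2 at 2.63 and EIF4E at -2.47 are the called genes.

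The ratio of 2 genes' counts within a library does not depend on the scaling of that library, though it depends on gene length and amplification, so it is compared between libraries and not read as a ratio of molecules. EIF4EBP2 held 25.0, 36.1 and 16.2 counts per count of EIF4E in Input, 6.18, 4.84 and 4.22 in DCC-IP, and 146, 185 and 175 in Nrp1-IP. The 3 groups did not overlap, with Input between the receptors. The ratio of EIF2S3 to EIF2S1, the gamma and alpha subunits of eIF2, was 7.66, 6.33 and 3.75 in Input, 3.84, 5.21 and 3.31 in DCC-IP, and 1.46, 1.32 and 1.17 in Nrp1-IP. Here Nrp1-IP lay below all other libraries, and DCC-IP and Input overlapped. These ratios are given as a description with no test, because their genes were chosen for their change and 3 libraries against 3 cannot give an exact p below 0.10.

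**Figure D3:**
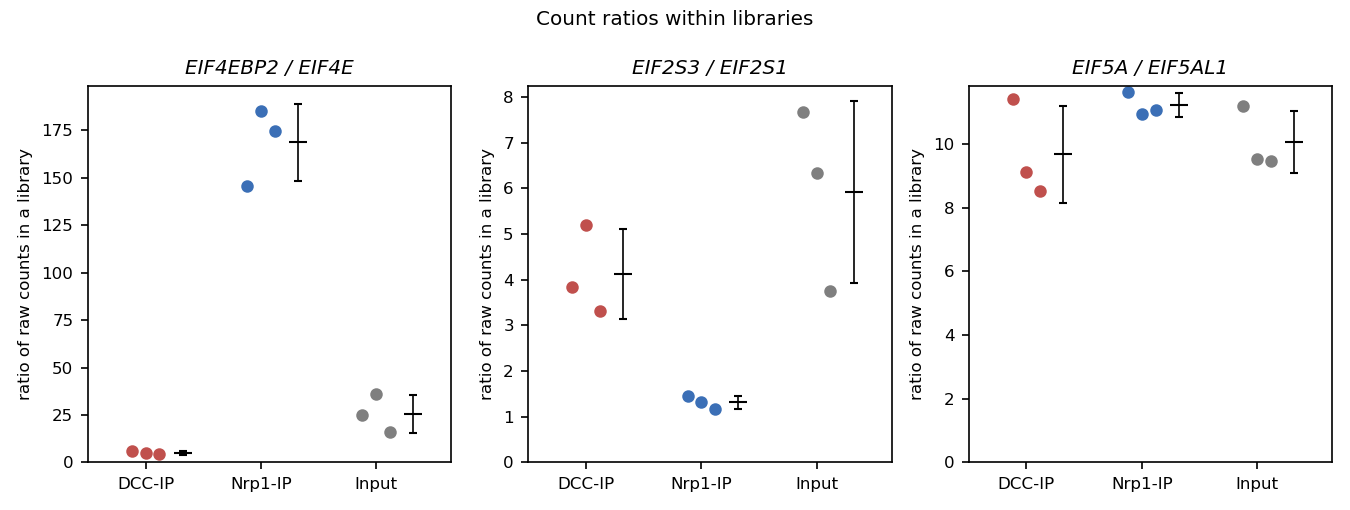
Ratios of raw counts of gene pairs within each library (vertical axes, starting at 0), with 1 point per library and the mean ± SD of 3 libraries beside each group. EIF4EBP2 over EIF4E separates the 3 groups (means 25.8 for Input, 5.08 for DCC-IP and 169 for Nrp1-IP), EIF2S3 over EIF2S1 is lowest in Nrp1-IP (mean 1.31), and EIF5A over EIF5AL1 stays between 8.53 and 11.6 in all libraries.

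Several other members separated the receptors without passing the threshold. EIF3M, a subunit of eIF3, had 923, 615 and 830 counts in Input, 564, 483 and 593 in DCC-IP, and 1600, 1705 and 2055 in Nrp1-IP. Nrp1-IP was above all other libraries, at a log2 fold change over DCC-IP of 1.55 ± 0.40 (adjusted p = 0.0730), and the adjusted p was 0.0327 and 0.0300 without DCC-IP replicate 1 and 3, and between 0.148 and 0.374 without each of the other 4 libraries. EIF2S3 had a log2 fold change of 0.97 ± 0.31 (adjusted p = 0.137), which was 0.0434 and 0.0428 without those same DCC-IP libraries and between 0.213 and 0.535 without each of the others. Both genes were called with MAP1B left out of the counts and with library size alone (adjusted p from 0.0110 to 0.0289). EIF3M lies within an overlap with CCDC73 in RefSeq.

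On the DCC-IP side, EIF4G2, a scaffold related to eIF4G that does not bind eIF4E, had 65, 222 and 74 counts in Input, 1176, 455 and 694 in DCC-IP, and 75, 217 and 214 in Nrp1-IP. The DCC-IP libraries were above all others, at a Nrp1-IP over DCC-IP log2 fold change of -2.42 ± 0.67 (adjusted p = 0.0891). PABPC1, which binds the poly(A) tail, had 1103, 1043 and 738 counts in Input, 1442, 1101 and 1781 in DCC-IP, and 558, 704 and 592 in Nrp1-IP (log2 fold change -1.34 ± 0.42, adjusted p = 0.132). The Nrp1-IP counts of PABPC1 were below those of all other libraries. EIF1B, a start codon selection factor, was not tested between the receptors, with 16, 18 and 13 counts in Input, 0, 31 and 121 in DCC-IP, and 0, 1 and 0 in Nrp1-IP. Its DCC-IP libraries spanned the whole range seen, so that no direction can be read for DCC-IP. EIF1B was tested in Nrp1-IP over Input, where all Nrp1-IP libraries lay below Input on these low counts. The log2 fold change was -5.46 ± 1.45 (adjusted p = 0.0727, not called).

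To ask what the DCC pulldown held relative to whole lysate, DCC-IP was compared with Input over 6223 genes, 50 of them members. EIF2B2 was called higher, and EIF2S1, EIF2S3, EIF4EBP2, EIF5A and EIF5AL1 were called lower. This is 12% of the members tested, and 4.98% of all tested genes were called (1.46% higher and 3.52% lower). RLE size factors gave 0 higher and 5 lower (44 and 169 over all tested genes), with 5 members higher at an unadjusted p under 0.05. DESeq2 gave 3 higher and 6 lower (508 and 524 over all tested genes). The median log2 fold change was 0.04 for the members and 0.16 for all tested genes, and 25 of the 50 members were above 0 where 52.9% of all tested genes were. DCC-IP libraries lay above all Input libraries for 8 members and below them for 12 (15.2% and 18.2% of all tested genes). Libraries of this comparison with the same replicate number were taken as pairs from weak correlations, since the labels state no pairs. With the replicate number as a block 2 members were called higher and 6 lower, adding EIF3L (adjusted p = 0.0225) and EIF5A2 (adjusted p = 0.0319). Over all tested genes the block gave 238 higher and 477 lower, against 91 and 219 without it.

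EIF2S3, the gamma subunit of eIF2 that binds the initiator tRNA and GTP, was the member with the most counts. They numbered 180998, 140288 and 71212 in Input, 25596, 26310 and 22123 in DCC-IP, and 53382, 57519 and 50990 in Nrp1-IP. The 3 groups did not overlap, with DCC-IP lowest and Input highest. Its level was 16375 ± 7206 CPM in Input, 2181 ± 684 CPM for DCC-IP, and 4713 ± 774 CPM for Nrp1-IP, and DCC-IP was lower than Input at a log2 fold change of -2.82 ± 0.38 (adjusted p = 0.00753). EIF2S1 was lower at -2.23 ± 0.31 (adjusted p = 0.00839) and EIF4EBP2 at -2.23 ± 0.36 (adjusted p = 0.0126). Relative to the median gene these changes were -2.98, -2.39 and -2.40.

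EIF5A encodes the factor that relieves ribosomes stalled in elongation and carries the modified amino acid hypusine. Counts were 9817, 9010 and 6774 in Input, 1095, 738 and 1083 in DCC-IP, and 1957, 2219 and 1705 in Nrp1-IP. Every Input library was above every pulldown library, and the log2 fold change of DCC-IP over Input was -3.55 ± 0.39 (adjusted p = 0.00513). EIF5AL1 is a nearly identical copy, with 877, 946 and 716 counts in Input, 96, 81 and 127 in DCC-IP, and 168, 203 and 154 in Nrp1-IP, and it was called lower too (log2 fold change -3.49 ± 0.57, adjusted p = 0.0131). The proportion of EIF5A to EIF5AL1 counts ran from 8.53 to 11.6 over all 9 libraries. Reads of the 2 genes may be shared, so that EIF5AL1 is uncertain as a separate result. The third relative, EIF5A2, had 2244, 2276 and 2370 counts in Input, 1262, 1273 and 664 in DCC-IP, and 1444, 674 and 808 in Nrp1-IP, and was below Input in all pulldown libraries at a log2 fold change of -1.50 ± 0.46 in DCC-IP (adjusted p = 0.0967).

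EIF2B2 encodes the beta subunit of eIF2B, which recharges eIF2 with GTP. Counts were 42, 41 and 45 in Input, 399, 567 and 439 in DCC-IP, and 82, 167 and 94 in Nrp1-IP. The 3 groups did not overlap. The log2 fold change of DCC-IP over Input was 3.03 ± 0.67 (adjusted p = 0.0399), that of Nrp1-IP over Input was 0.98 ± 0.54 (adjusted p = 0.342) and the direct comparison of the receptors gave -2.16 ± 0.63 (adjusted p = 0.102). The other eIF2B subunits had at most 40 counts in any library, and EIF2B1, the only one of them tested in this comparison, gave -0.68 ± 1.67 (adjusted p = 0.856).

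The calls against Input depended on single libraries. Without DCC-IP replicate 1 or 2, edgeR called 0 of the 6 members (adjusted p from 0.0766 to 0.0967, and from 0.0975 to 0.187), with 5 higher and 9 lower, and 5 higher and 6 lower, at an unadjusted p under 0.05. Over all genes, 0 and 1 were called in those fits. Without DCC-IP replicate 3 or Input replicate 1, EIF2S3 and EIF5A were kept (highest adjusted p of the 6 members 0.0864 and 0.195). EIF2B2 lost its call in all 6 fits (adjusted p up to 0.214, without Input replicate 2), at log2 fold changes from 2.92 to 3.50, and also with RLE size factors (adjusted p = 0.0639) and no count filter (adjusted p = 0.0773). With MAP1B left out of the counts, only EIF2S3 and EIF5A were called of these 6, and the highest adjusted p was 0.0626.

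**Figure D4:**
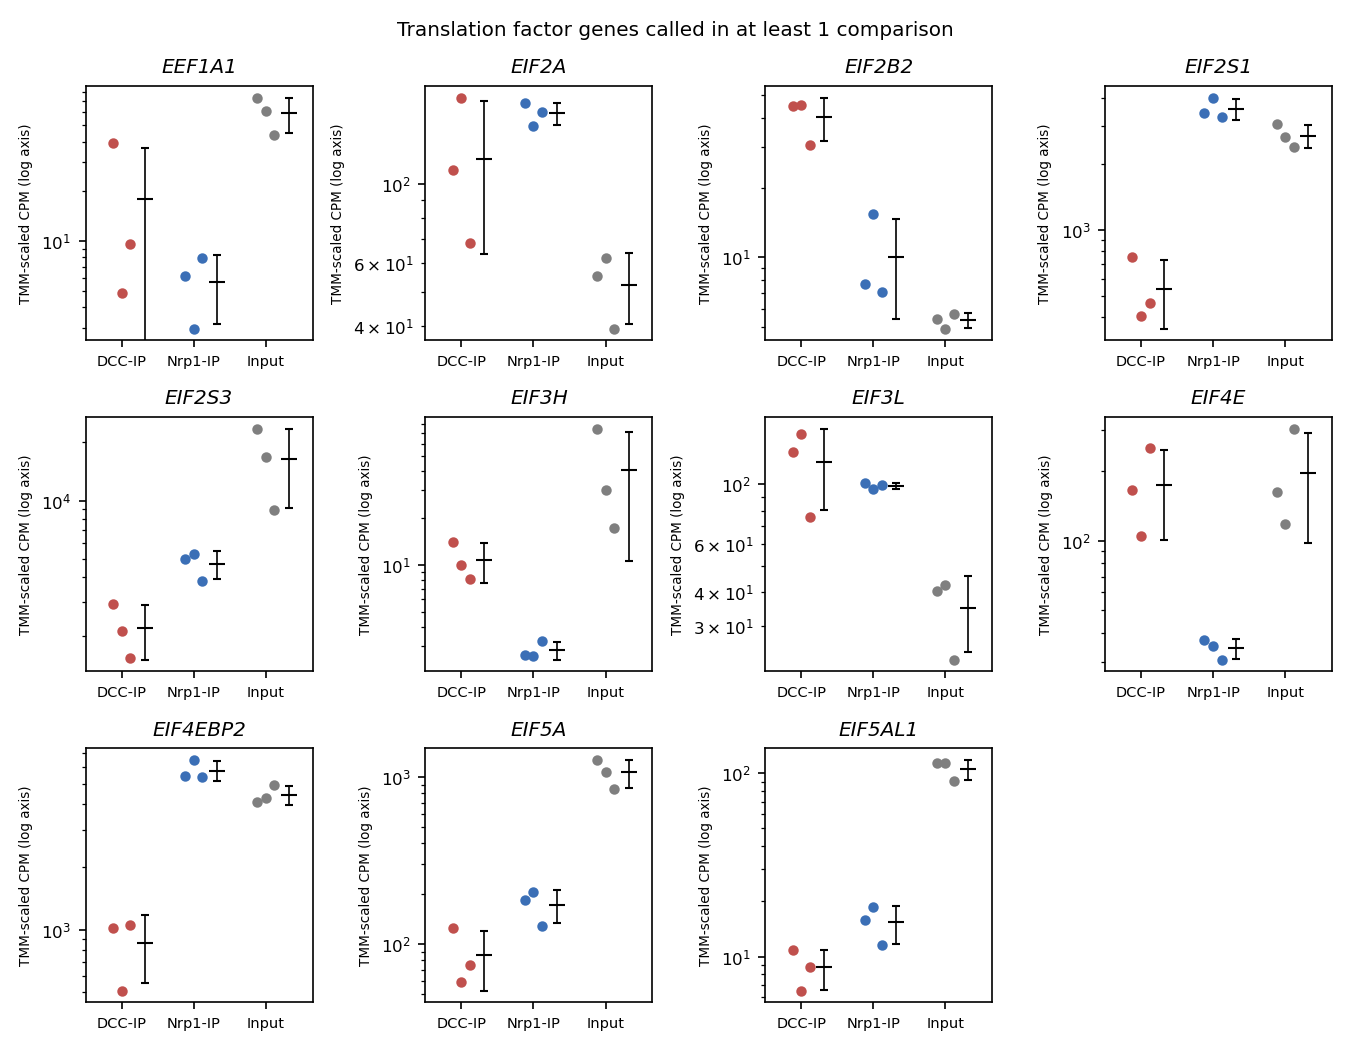
TMM-scaled level in CPM (vertical log axes, a separate range per gene) of the 11 translation factor genes called in at least 1 comparison, with 1 point per library and the mean ± SD of 3 libraries beside each group. The lower bar of EEF1A1 in DCC-IP runs off the log axis. EIF2S1 and EIF4EBP2 are low in DCC-IP, EIF4E is low in Nrp1-IP, and EIF5A, EIF5AL1 and EIF2S3 are highest in Input.

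For Nrp1-IP against Input, 6501 genes were tested, 51 of them members. EIF2A and EIF3L were called higher, and EEF1A1, EIF2S3, EIF3H, EIF4E, EIF5A and EIF5AL1 were called lower. This is 15.7% of the members tested, and 4.97% of all tested genes were called (1.94% higher and 3.03% lower). RLE size factors gave 1 higher and 8 lower (85 and 265 over all tested genes), and library size alone 6 higher and 6 lower (351 and 167). The median log2 fold change was -0.59 for the members and 0.06 for all tested genes, and 22 of the 51 members were above 0 where 51.8% of all tested genes were. Nrp1-IP libraries lay above all Input libraries for 11 members and below them for 15 (17.7% and 13.8% of all tested genes).

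EIF2A, an initiator tRNA-binding protein that is unrelated to the eIF2 complex, had 1796, 1575 and 2105 counts in Nrp1-IP against 428, 520 and 312 in Input, and 963, 2173 and 986 in DCC-IP. Both pulldowns were above Input. The log2 fold change was 1.69 ± 0.32 for Nrp1-IP (adjusted p = 0.0295) and 1.29 ± 0.55 for DCC-IP (adjusted p = 0.213). EIF3L, a subunit of eIF3, had 1081, 1045 and 1318 counts in Nrp1-IP, 311, 354 and 178 in Input and 1163, 1922 and 1092 in DCC-IP. It too was above Input in all pulldown libraries, by 1.60 ± 0.36 in Nrp1-IP (adjusted p = 0.0474) and 1.90 ± 0.55 in DCC-IP (adjusted p = 0.0835 without and 0.0225 with the replicate block).

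EIF3H, another eIF3 subunit, had 28, 28 and 43 counts in Nrp1-IP, 581, 253 and 137 in Input and 124, 125 and 116 in DCC-IP. Nrp1-IP was lowest, DCC-IP was in between, and the Input libraries differed among themselves by more than the pulldown libraries did. Nrp1-IP over Input gave a log2 fold change of -3.79 ± 0.66 (adjusted p = 0.0246). EEF1A1, the factor that delivers aminoacyl-tRNA during elongation, had 66, 32 and 105 counts in Nrp1-IP, 565, 508 and 350 in Input and 347, 61 and 139 in DCC-IP, and fell by 3.30 on the log2 scale in Nrp1-IP (SE 0.52, adjusted p = 0.0175). EEF1A1 has many processed copies in the genome, and reads that align to more than 1 place were not counted on genes.

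EIF2S3 was lower in Nrp1-IP than in Input at a log2 fold change of -1.71 ± 0.36 (adjusted p = 0.0402), EIF5A at -2.55 ± 0.32 (adjusted p = 0.0113), EIF5AL1 at -2.69 ± 0.37 (adjusted p = 0.0132) and EIF4E at -2.46 ± 0.47 (adjusted p = 0.0308). EIF2S1 and EIF4EBP2 were not called against Input, at 0.49 ± 0.23 (adjusted p = 0.271) and 0.46 ± 0.23 (adjusted p = 0.294). In Nrp1-IP, then, the alpha and gamma subunits of eIF2 had log2 fold changes over Input of opposite sign, although only that of EIF2S3 was called.

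With 1 Nrp1-IP library left out, edgeR called 0 of these 8 members. Adjusted p ran from 0.108 to 0.219 without replicate 1, from 0.117 to 0.226 without replicate 2 and from 0.0818 to 0.163 without replicate 3. At an unadjusted p under 0.05, 5 members were higher in each fit, and 9, 10 and 13 were lower. Over all genes these fits called 0 higher, and 0, 7 and 7 lower, where the fit to all 6 libraries gave 126 and 197. Without Input replicate 1, EIF5A and EIF5AL1 were kept (highest adjusted p of the 8 members 0.122), without Input replicate 2 those and EEF1A1, EIF3H and EIF4E (highest 0.108), and without Input replicate 3 all 8. With all 9 libraries in one fit, EIF2A, EIF3L and EEF1A1 were not called (adjusted p up to 0.160).

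**Figure D5:**
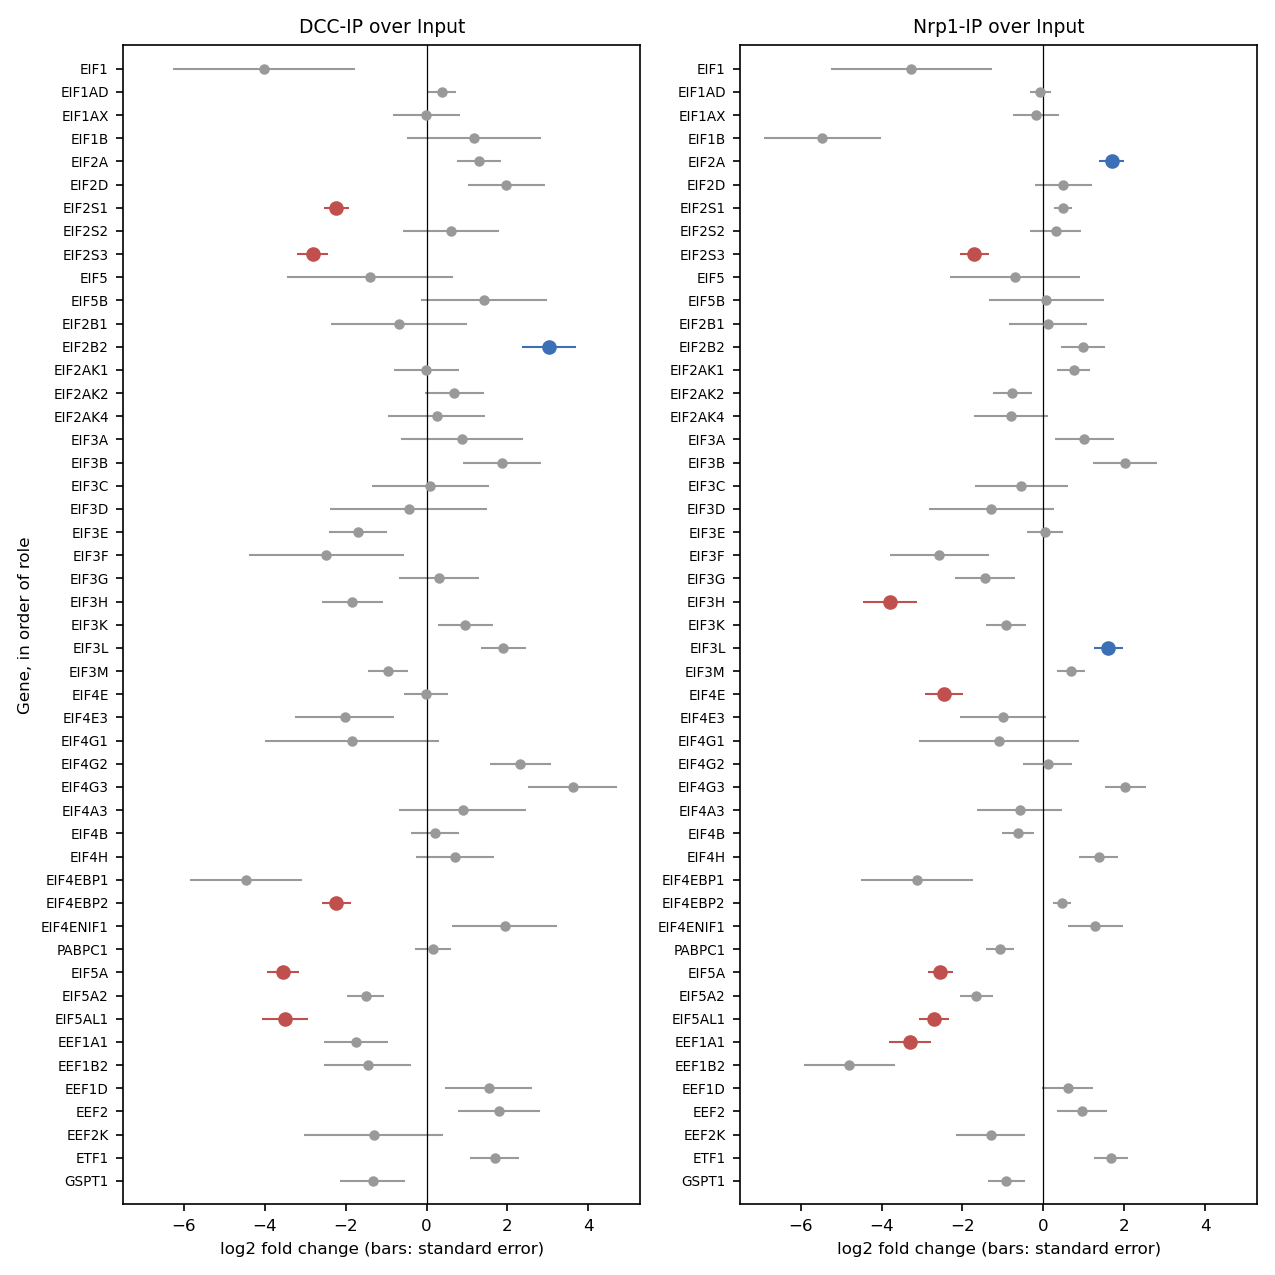
Log2 fold change over Input (horizontal axes, bars are standard errors) in DCC-IP (left) and Nrp1-IP (right) for the 49 translation factor genes tested in both comparisons, in order of role. Blue marks a gene called higher, red a gene called lower, grey a gene not called. The Input libraries are shared by the panels. EIF5A, EIF5AL1 and EIF2S3 are red in both panels, EIF2S1 and EIF4EBP2 only in DCC-IP, and EIF4E, EIF3H and EEF1A1 only in Nrp1-IP.

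Members of the same role often had changes of opposite sign. Mixed signs were general, since 42.6% of all tested genes had a log2 fold change above 0 between the receptors. Of the 14 subunits of eIF3, which bridges the mRNA and the small subunit, 11 were tested between the receptors and edgeR called 0. At an unadjusted p under 0.05 there were 4, where 1118 of all 6439 tested genes were. DESeq2 called 3 (EIF3H, EIF3K and EIF3M), and 408 higher and 297 lower over all tested genes. Their log2 fold changes ran from 1.56 for EIF3E and 1.55 for EIF3M to -2.02 for EIF3K and -2.07 for EIF3H. EIF3K had 206, 134 and 88 counts in Input, 492, 286 and 323 in DCC-IP, and 96, 95 and 122 in Nrp1-IP, whereas EIF3E had 407, 374 and 153 in Input, 172, 105 and 103 in DCC-IP, and 456, 424 and 399 in Nrp1-IP. Of the tested subunits, 3 were above 0 and 8 below. EIF3K and EIF3E are shown because of their values, and neither was called by edgeR (adjusted p = 0.133 and 0.235).

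EIF1AD is an EIF1A-like protein that was listed with the start codon factors eIF1 and eIF1A. A part in start codon selection is not implied. It had the most counts of that group and was not called in any comparison. There were 7262, 7402 and 4919 counts in Input, 10215, 14286 and 9617 in DCC-IP, and 7080, 8785 and 9375 in Nrp1-IP. The DCC-IP counts were the highest, but scaled levels overlapped between groups. Its log2 fold changes were -0.61 ± 0.34 for Nrp1-IP over DCC-IP, 0.39 ± 0.34 for DCC-IP over Input and -0.08 ± 0.26 for Nrp1-IP over Input (adjusted p from 0.410 to 0.901). EIF1, by contrast, was seen in 1 library of each pulldown, with 22 counts in DCC-IP replicate 3 and 36 in Nrp1-IP replicate 3, and with 1, 230 and 26 counts in Input.

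Among the eIF2 kinases, EIF2AK1, which responds to heme and mitochondrial stress, had 245, 221 and 122 counts in Input, 61, 320 and 431 in DCC-IP, and 427, 405 and 519 in Nrp1-IP. EIF2AK2, which responds to double-stranded RNA, had 104, 127 and 214 counts in Input, 476, 278 and 176 in DCC-IP, and 133, 103 and 124 in Nrp1-IP. Neither was called in any of the 3 comparisons (adjusted p from 0.278 to 0.998). EIF2AK3, the kinase of the endoplasmic reticulum, had 21, 8 and 5 counts in Nrp1-IP and 0 in all DCC-IP and Input libraries, and was not tested because of its low counts.

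Among the paralogues of the cap-binding protein and its scaffold, EIF4E3, a divergent cap-binding paralogue, had 13, 134 and 486 counts in Input, 37, 38 and 141 in DCC-IP, and 179, 68 and 209 in Nrp1-IP, with overlapping groups. EIF4E2, which competes with EIF4E for caps, stayed at or under 16 counts. EIF4G3 had 17, 37 and 25 counts in Input, 959, 123 and 131 in DCC-IP, and 120, 159 and 148 in Nrp1-IP. All its pulldown libraries were above Input, by 3.61 ± 1.09 in DCC-IP (adjusted p = 0.0937) and 2.02 ± 0.51 in Nrp1-IP (adjusted p = 0.0643), and neither was called by edgeR, while DESeq2 called the second. The DCC-IP value rested on replicate 1, since without it the log2 fold change was 1.78 (adjusted p = 0.262), and it was called at 4.73 without replicate 3 (adjusted p = 0.0474). EIF4G1, the main scaffold, was at 0 in 2 of 3 libraries of each pulldown, with 14 counts in DCC-IP replicate 3 and 25 in Nrp1-IP replicate 3, and with 0, 19 and 17 counts in Input.

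The helicases EIF4A1 and EIF4A2 passed the filter in no comparison, with at most 33 counts in a library. Their cofactor EIF4B had 336, 441 and 583 counts in Input, 787, 324 and 995 in DCC-IP, and 343, 306 and 588 in Nrp1-IP, with overlapping groups. EIF4EBP1, the paralogue of EIF4EBP2, had 25, 31 and 48 counts in Input, 1, 3 and 2 in DCC-IP, and 1, 0 and 17 in Nrp1-IP. All pulldown libraries were below Input for EIF4EBP1, without a call by edgeR (adjusted p = 0.1002 in DCC-IP and 0.243 in Nrp1-IP).

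Of the elongation and termination factors, edgeR called EEF1A1 in Nrp1-IP over Input, where DESeq2 also called EEF1B2 and ETF1. EEF2, which translocates the ribosome, had 124, 106 and 27 counts in Input, 696, 366 and 67 in DCC-IP, and 231, 257 and 165 in Nrp1-IP. EEF1B2, an exchange factor of eEF1A, had 29, 65 and 39 counts in Input, 15, 25 and 25 in DCC-IP, and 3, 0 and 3 in Nrp1-IP, groups that did not overlap (Nrp1-IP over Input, adjusted p = 0.0531, called with RLE size factors). ETF1, the release factor that reads stop codons, had 267, 204 and 126 counts in Input, 1053, 878 and 586 in DCC-IP, and 875, 928 and 763 in Nrp1-IP. Both pulldowns were above Input for ETF1, at log2 fold changes of 1.68 ± 0.61 (adjusted p = 0.143) and 1.67 ± 0.43 (adjusted p = 0.0672, called with library size only). Its partner GSPT1 had 345, 202 and 375 counts in Input, 60, 97 and 358 in DCC-IP, and 204, 202 and 291 in Nrp1-IP, with a fold change over Input below 0 in both pulldowns (adjusted p = 0.397 and 0.285).

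A list of 10 known TOP mRNAs, all of them members, was described next to the motif. Between the receptors 8 were tested and edgeR called 0, at a median log2 fold change of -1.26 against -0.27 for all tested genes. At an unadjusted p under 0.05 there were 3, where 1118 of all 6439 tested genes were. DESeq2 called 1 (EIF3H), and 408 higher and 297 lower over all tested genes. In DCC-IP over Input 9 were tested and 0 were called by edgeR or DESeq2, at a median of -1.45 (0.16 for all genes). Of these 9, 2 were at an unadjusted p under 0.05, where 1367 of all 6223 tested genes were. In Nrp1-IP over Input 2 of 9 were called lower by edgeR, EEF1A1 and EIF3H, where 3.03% of all tested genes were. DESeq2 called 4, adding EEF1B2 and PABPC1, and called 589 of all 6501 tested genes lower. The median there was -1.07 (0.06 for all genes). By sequence, the tested members with the motif at their start had medians of -1.002, -0.44 and -0.92 in these comparisons, and those without it -0.25, -0.0031 and -0.57. These sequence groups do not match the list of known TOP mRNAs. Of that list, EEF1D, EIF3E, EIF3H and PABPC1 had no window and are in neither group, and the window of EEF1G held no motif. The motif was found in members that were called lower against Input (EIF2S3 and EEF1A1) and in EIF2A, which was called higher. Members without it were called lower too. In DCC-IP over Input, 1 of 11 members with the motif and 4 of 29 without it were called lower. In Nrp1-IP over Input, 2 of 11 and 3 of 30 were.

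The wider control of translation was represented by 31 regulators in the files, among them mTOR complex 1, its inhibitors, S6 kinases and regulators of PABP and eIF4A. Between the receptors 19 were tested and 1 was called (5.26%, against 3.65% of all tested genes), PAIP2B, an inhibitor of poly(A)-binding protein. Its counts were 2035, 1142 and 658 in Input, 611, 394 and 285 in DCC-IP, and 4459, 2306 and 2856 in Nrp1-IP. DCC-IP lay below all other libraries, and the Nrp1-IP over DCC-IP log2 fold change was 2.69 (adjusted p = 0.0279). The call on PAIP2B was lost without DCC-IP replicate 2 (adjusted p = 0.0969), Nrp1-IP replicate 1 (adjusted p = 0.236) and Nrp1-IP replicate 2 (adjusted p = 0.0920). PAIP2B over Input in DCC-IP, at -1.96, was not called without the replicate block (adjusted p = 0.105) and was called with it (adjusted p = 0.0150).

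PDCD4, an inhibitor of the helicase eIF4A, was the 1 regulator called against Input without the replicate block, of 15 tested for DCC-IP and 20 for Nrp1-IP (6.67% and 5%, against 4.98% and 4.97% of all tested genes). With the block, edgeR in addition called PAIP2B and MKNK1, an eIF4E kinase, in DCC-IP over Input. Calls over all genes rose there to 238 higher and 477 lower, from 91 and 219 without the block. MKNK1 was at a log2 fold change of 2.36 there, with an adjusted p of 0.0807 without and 0.0350 with the block. The counts of PDCD4 were 12286, 8918 and 16370 in Input, 3292, 2626 and 6074 in DCC-IP, and 1836, 1920 and 1491 in Nrp1-IP. The groups did not overlap, and PDCD4 was lower than in Input at log2 fold changes of -2.10 in DCC-IP (adjusted p = 0.0289) and -3.30 in Nrp1-IP (adjusted p = 0.0109). In DCC-IP the call was lost in the fits without DCC-IP replicate 1, 2 or 3 and without Input replicate 1 or 2 (adjusted p = 0.132, 0.218, 0.0855, 0.136 and 0.0524) and with library size only or MAP1B left out (adjusted p = 0.0674 and 0.0756), and in Nrp1-IP without Nrp1-IP replicate 1, 2 or 3 (adjusted p = 0.108, 0.114 and 0.0777). The inhibitors EIF4EBP2 and PAIP2B thus shared a sign between the receptors that PDCD4 did not, at -1.25 for PDCD4 (adjusted p = 0.122).

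Of the 69 members, 17 were tested in no comparison: EEF1A2, EEF1E1, EEF1G, EIF1AY, EIF2AK3, EIF2B3, EIF2B4, EIF2S3L, EIF3CL, EIF3J, EIF4A1, EIF4A2, EIF4E1B, EIF4E2, EIF4EBP3, GSPT2 and PABPC4. Reads on EIF3C and EIF3CL, and on EIF2S3 and EIF2S3L, may be split between near-identical copies, and EEF1E1, EIF4A1 and EIF4EBP3 each share their locus with a readthrough gene in RefSeq. In all, 42 of the 69 members overlap another RefSeq gene. What part shared or overlapping reads have in these counts was not tested.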

How the data were processed

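RNA from SH-SY5Y cells was sequenced as 3 DCC-IP, 3 Nrp1-IP and 3 Input libraries, grouped by their labels. The authors converted reads with bcl2fastq, aligned them to hg19 with HISAT2 2.1.0, per the labels, and obtained gene counts from HTSeq 0.11.0. Deposited are these raw counts for 42785 gene symbols, with 5 HTSeq summary lines per library (68.7% to 70.8% of its reads) that were left out. The annotation and strand setting are not given in the sources used here.

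Each comparison was fitted to its own 6 libraries with edgeR 4.0.16 under R 4.3.3, using filterByExpr (minimum count 10), TMM scaling, glmQLFit and glmQLFTest, fitted over all genes and adjusted by Benjamini-Hochberg. The study's methods name edgeR and the threshold of 0.05. The SE is the log2 fold change divided by the square root of F. CPM were scaled by TMM over all 9 libraries. The fits were run on simulated counts with known changes, and recovery was checked at a spread between libraries far below that of these data. The common dispersion, edgeR's measure of that spread, was 0.862 for Nrp1-IP over DCC-IP, 1.05 for DCC-IP over Input and 0.579 for Nrp1-IP over Input. The check therefore does not show how many true changes go uncalled here. Members, lists and roles were chosen with earlier results of these data known. Values are given by library for members called in any comparison, members on the study's lists, the member with the most counts in each role and named paralogues, and regulators called. EIF2AK2, EIF3E, EIF3K, EEF1B2 and EEF2 were added after their values were seen.

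Libraries with the same replicate number correlated in their deviations from group means at r = 0.117, 0.187 and 0.421 for DCC-IP and Input, which was taken as pairing. For Nrp1-IP with DCC-IP (0.0989, 0.113 and 0.361) and with Input (0.215, -0.0043 and 0.364) it was not. The labels state no pairs, and the choice between DCC-IP with Input and Nrp1-IP with DCC-IP turned on small differences in r. DCC-IP replicate 2 also correlated with Input replicate 1, at r = 0.136. Alternatives were RLE or library-size scaling, DESeq2 1.42.0, no filter, all 9 libraries in one fit, the replicate block, MAP1B left out, and each library left out. All 69 members matched RefSeq (GRCh38.p14), which served for names, overlaps and start sequences, since no genome of the files' build was used. Figures and summaries were made in Python 3.11.15 (pandas 2.3.3, numpy 2.4.6, matplotlib 3.10.9). Of the marker genes chosen, 1 is not reported here.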

Additional observations from a re-analysis of the deposited data

Results flagged for a closer look

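For 3 members the change over Input differed between the pulldowns, tested directly as Nrp1-IP over DCC-IP with edgeR's quasi-likelihood test. The difference on the log2 scale was 2.60 for EIF2S1, 2.63 for EIF4EBP2 and -2.47 for EIF4E (adjusted p = 0.00255, 0.0028 and 0.0178). The first 2 were higher in 3 of 3 Nrp1-IP libraries than in any DCC-IP library, and EIF4E was lower in 3 of 3.

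Counts outside the tests stood out for 2 genes. EIF2AK3 did not pass the count filter, and its lowest Nrp1-IP library held 5 counts (21, 8 and 5) where all 6 other libraries held 0. PABPC1L, a poly(A)-binding protein gene whose symbol lies outside the choice of members, held at least 9 counts in Nrp1-IP (9, 22 and 20) against 5, 5 and 0 in Input and 1, 21 and 26 in DCC-IP. Neither difference was tested.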

How the results depend on the processing

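Between the receptors, the calls on EIF2S1 and EIF4EBP2 were kept under all 7 other settings and without each library in turn. The number of members called higher was 4 with library size only and with MAP1B left out, and that called lower was 5 with DESeq2. Leaving out each library gave 2 to 4 higher and 0 to 1 lower. In DCC-IP over Input, 0 members were called higher with RLE size factors and with MAP1B left out, 3 with DESeq2 and with all 9 libraries in one fit and 2 with the replicate block, and 2 were called lower with MAP1B left out. With single libraries left out there were 0 to 1 higher and 0 to 5 lower. In Nrp1-IP over Input, members called higher numbered 1 with RLE size factors, 6 with library size only, 4 with DESeq2 and with the replicate block, and 0 with all 9 libraries in one fit. Without each library in turn there were 0 to 2 higher and 0 to 8 lower. Where edgeR called 0 in a direction, 2 to 13 members were at an unadjusted p under 0.05 in it. The replicate block changed no member's call between the receptors, and over Input it added EIF3B, EIF5A2 and ETF1 in Nrp1-IP (4 members higher and 7 lower) and the regulator RPS6KB1 (adjusted p = 0.0344) beside the changes given for DCC-IP. Between the receptors, as a hint from the data, each library correlated best with its own number, which did not hold for Nrp1-IP and Input. Calls over all genes moved with the setting too. DESeq2 gave 408 higher and 297 lower between the receptors, 508 and 524 in DCC-IP over Input, and 377 and 589 in Nrp1-IP over Input. The replicate block gave 238 and 477 in DCC-IP over Input, and 239 and 317 in Nrp1-IP over Input. The share of gene counts on the members in DCC-IP rose to 1.21% with MAP1B left out of the total. The causes were not tested.

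Signs turned for members that were not called in the comparison concerned. In Nrp1-IP over DCC-IP, ETF1 was 0.12 with library size only, 9.3e-05 with no filter and 0.16 with MAP1B left out, and EIF5A2 was 0.0050 with MAP1B left out. Leaving out each library gave -0.27 to 0.46 for ETF1, -0.66 to 0.25 for EIF5A2 and -2.28 to 0.41 for EIF4G3. In DCC-IP over Input, EIF2AK1 was 0.37 with library size only, 0.0096 with no filter and 0.089 with MAP1B left out, EIF4E was 0.30, 0.10 and 0.15, and EIF1B was -0.12 with the replicate block. The fits without a library gave -0.30 to 0.40 for EIF2AK1, -0.33 to 0.44 for EIF4E, -0.34 to 1.69 for EIF1B, -0.041 to 0.91 for EIF4B and -0.040 to 0.69 for PABPC1. In Nrp1-IP over Input, EIF4G2 was -0.12 with RLE size factors and with DESeq2, -0.024 with no filter and -0.038 with all 9 libraries, and EIF1AD was 0.32 with library size only. Fits on 5 libraries gave -0.34 to 0.67 for EIF4G2 and -1.59 to 0.49 for EIF4E3. Over all single-gene fits, 881 kept direction and side of the threshold, 82 lost a call, 39 gained one and 33 turned sign.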

Other observations

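How closely replicates agreed depended on the group as well as on the number of counts. Among members with a mean over 1000 counts, the median coefficient of variation over replicates was 19.4% for Input (7 members), 34.5% for DCC-IP (9 members), and 10.7% for Nrp1-IP (8 members). Between 100 and 1000 counts it was 35.6%, 57.3% and 20.4%. Members that held at most 3 counts in 1 library and at least 20 in another of the same group numbered 9 for Input, 12 for DCC-IP, and 6 for Nrp1-IP. They included EIF1, the start codon factor, EIF5, the GTPase-activating protein of eIF2, and EIF3F, an eIF3 subunit, in both pulldowns. There, EIF1 and EIF4G1 had counts in replicate 3 alone, the library of each group with the most members over the floor.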
